A study of Macrobrachium rosenbergii with 20 samples.

Results

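Of 30260 transcripts measured in the giant freshwater prawn Macrobrachium rosenbergii, 149 were higher in females than in males in both the hepatopancreas and the gonads. They were chosen from group medians of normalised counts, that is, rounded counts divided by a size factor for each library. A member had a median of at least 50 in female hepatopancreas and in ovary. With 1 added to each median, its ratio of female to male hepatopancreas and its ratio of ovary to testis were both at least 2. Of 3693 transcripts with medians of at least 50 in both female groups, 327 reached the ratio in hepatopancreas, 1200 reached it in gonads, and the 149 (4.03%) reached it in both. Those 3693 transcripts are called the female-abundant transcripts here.

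RNA was sequenced from whole organs of adult prawns of the strain label CMr1, with 5 libraries for each organ and sex (hepatopancreas of females and of males, ovary, testis). All groups share strain and stage, and no treatment is given in the labels. Replicates carry the numbers 1 to 5 within each group, and nothing states that libraries of 1 number come from 1 animal or that replicates are separate animals, so p-values measure the spread between these libraries. The weight gain labels of the hepatopancreas and gonad libraries of 1 number differed in 10 of 10 cases, by 1.07 to 3.09 in females and by 0.01 to 1.35 in males. Library totals ran from 8670654 to 18355664 counts. Male hepatopancreas 5, female hepatopancreas 4 and testis 5 stood apart from the rest of their groups in earlier results of these data. The IDs carry no gene names and none is found among the 31758 reference genes, so the tissue labels could not be checked against markers.

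The hepatopancreas of decapod crustaceans makes digestive enzymes and stores lipid. In females it is also known, together with the ovary, as a source of vitellogenin, the yolk precursor protein taken up by growing oocytes. In this species females carry unlike sex chromosomes (ZW), and an insulin-like hormone of the androgenic gland governs male differentiation. No transcript described here can be tied to any of these genes.

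The sex ratios of the members were mostly modest and were larger in the gonads. The smaller of the 2 ratios had a median of 2.42 over the members. It was under 3 for 103 of them, at least 4 for 31 and at least 10 for 9. The median ratio was 2.55 in hepatopancreas and 4.32 in gonads, against 1.05 and 1.23 over the female-abundant transcripts, and 105 members had the larger ratio in gonads. These ratios chose the members, so they are given as a description and without a test. The last member inside the threshold, transcript_HQ_Female_transcript17191/f4p0/1105, had hepatopancreas medians of 103.8 for females and 51.2 for males and gonad medians of 593.4 for ovary and 77.4 for testis, with a hepatopancreas ratio of 2.006. The first transcript outside, transcript_HQ_Female_transcript3165/f26p0/2155, had medians of 1159 and 459.4 in female and male hepatopancreas and 1242.2 and 621.7 in ovary and testis, with a gonad ratio of 1.996.

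Most members were lower in males and not silent there. None lacked counts in all male libraries, and 118 had counts in all 10 of them. Medians of at least 50 in both male groups were found for 93 members, and medians under 10 in both for 5. The median was 0 in male hepatopancreas for 9 members and in testis for 3. Over the members, the median normalised count in hepatopancreas was 377.2 for females and 127.1 for males, and in gonads it was 620.8 for ovary and 132.3 for testis. Because these are bulk organs, less RNA per cell and fewer cells of a type cannot be told apart.

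**Figure D1:**
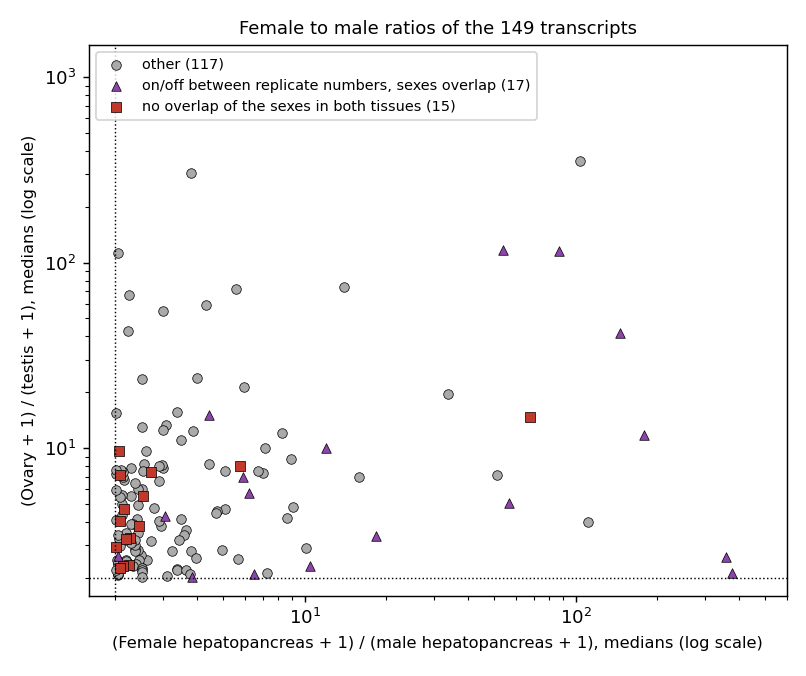
Each point is 1 of the 149 members, placed by its female to male ratio of medians in hepatopancreas (x) and in gonads (y), both on log axes, with dotted lines at the threshold of 2. The 15 members whose sexes did not overlap in both tissues (squares) mostly lie near the threshold, while members that were on in some replicate numbers and off in others (triangles) include several of the largest ratios.

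Summed over the members, the normalised counts were higher in every ovary than in every testis, while 1 male hepatopancreas exceeded 4 of the 5 female ones. In ovaries 1 to 5 the sums were 255777, 257959, 227824, 280306 and 267749. In testes 1 to 5 they were 138358, 70352, 64876, 87858 and 119313. The median ovary sum was 2.94 times the median testis sum, and the ovaries were close to each other. In female hepatopancreas 1 to 5 the sums were 218773, 352255, 177690, 241724 and 657120, and in males 1 to 5 they were 105252, 90228, 77673, 74209 and 445485. The ratio of these medians was 2.68. Male 5 lay above all females but female 5, and males 1 to 4 lay below every female. As a share of all counts, the members made up 5.1% ± 0.343 of ovary and 0.77% ± 0.443 of testis libraries, and 1.71% ± 0.798 of female and 0.727% ± 0.944 of male hepatopancreas libraries (SD, n = 5 each).

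A pair of transcripts held much of the hepatopancreas sums. Transcript_HQ_Male_transcript29924/f2p0/779, 1 of only 3 members with the word Male in the ID, had the highest normalised counts of the members over the female groups. It had 42763, 79744, 15520, 38394 and 456855 normalised counts in female hepatopancreas 1 to 5 and 19231, 25371, 15359, 13339 and 263521 in male hepatopancreas 1 to 5. The libraries numbered 5 were the highest in both sexes, and female 3 was at the level of males 1 to 4, so the sexes overlapped. In ovaries it had 10835, 16811, 19598, 3228 and 18351 and in testes 5232, 6867, 6975, 15926 and 17181, again with overlap, and it was lower in ovary than in female hepatopancreas (log2 change -3.03 ± 1.02 SE, edgeR adjusted p = 0.0236). The female tissues overlapped too, since hepatopancreas 3 lay below ovaries 2, 3 and 5. Hepatopancreas 5, far above the other females, weighs heavily in the size of this change. Transcript_HQ_Female_transcript17214/f2p0/1113 came second, with 9500, 4909, 47384, 14067 and 13204 in female and 5930, 3171, 6429, 7725 and 7513 in male hepatopancreas. Female 3 was far above the rest of its group, and female 2 was below 4 of the 5 males. This transcript had 10702, 5066, 6627, 11466 and 10416 in ovaries 1 to 5 and 6187, 3266, 3136, 5007 and 4744 in testes 1 to 5, where only ovary 2 fell among the testes. Both transcripts together made up 71.5% of the sum in female hepatopancreas 5 and 60.8% in male hepatopancreas 5. Without them male hepatopancreas 5 still had 174451, against 53146 to 80091 in the other males and 114785 to 267602 in females.

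**Figure D2:**
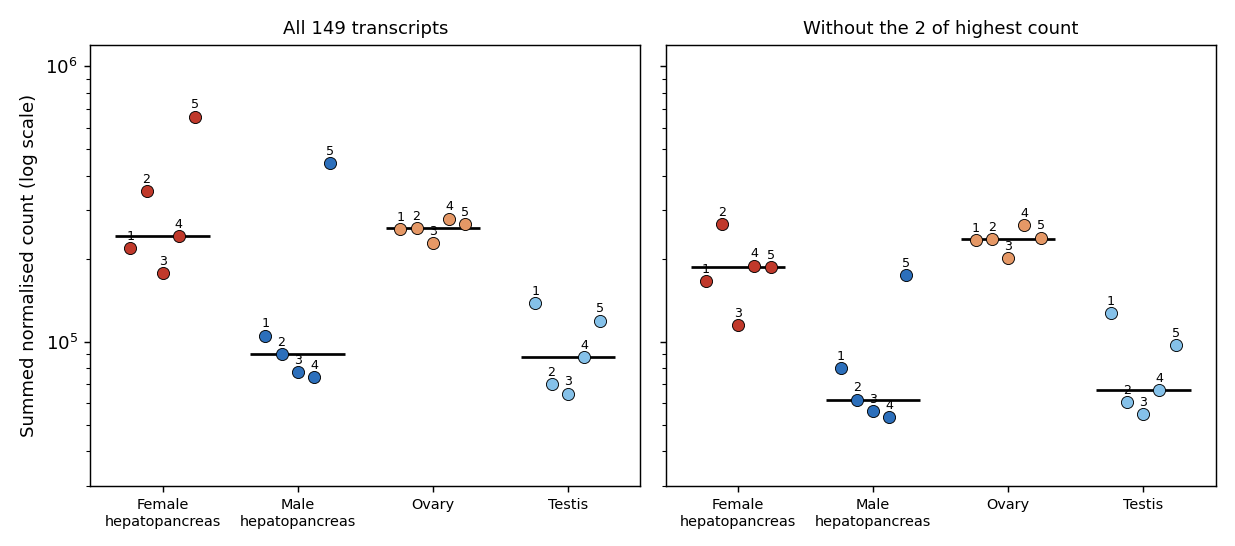
Summed normalised counts of the members in each library on a log axis, over all 149 (left) and without the 2 of highest count (right), with the replicate number beside each point and the group median as a line. Male hepatopancreas 5 lies among the females in both panels, and every ovary lies above every testis.

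Male hepatopancreas 5 resembled the females in many single members too. It was the highest of its group for 84 members (56.4%), against 25.6% of the female-abundant transcripts. It reached the female median or more for 31 members (20.8%), against 4 to 8 members in each of the other males. Its median ratio to the female median was 0.672 over the members, against 0.321 to 0.383 in males 1 to 4. Over the female-abundant transcripts that ratio was 0.963 in male 5 and 0.917 to 0.981 in the others. Size factors tend to bring such a median to a common value in every library, so it could hardly set male 5 apart. Among those transcripts male 5 was the highest male for 25.6% (16.5% to 21.5% in the others). It was the lowest male for 25.5% (14.7% to 24.5% in the others). Testis 5 was the highest testis for 72 members (48.3%), against 37% of the female-abundant transcripts. It reached the ovary median for 14 members, against 3 to 7 in the other testes. Whether these libraries differ in tissue composition was not tested.

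Complete separation of the sexes was the exception in hepatopancreas and common in gonads. All 5 females lay above all 5 males in hepatopancreas for 19 members, where 4.41% of all 6582 transcripts tested did so. In gonads this held for 86 members, against 22.9% of 7045. The rule used both differences, so nothing is read from these shares. Without male hepatopancreas 5 the hepatopancreas count was 53 (7.96% of all transcripts), and without female hepatopancreas 4 it was 29 (5.52% of all). Without testis 5 the gonad count was 101 (27.4% of all). Both tissues were separated for 15 members, against 1.61% of the 5833 transcripts tested in both, and for 48 without male hepatopancreas 5 and testis 5, against 3.57%. The 15 had smaller ratios of 2.01 to 14.8, and 13 of them were under 3. Their median SD between replicates was 0.43 on the scale of log2(normalised count + 1), against 0.93 over all members and 0.48 over the female-abundant transcripts. Separation at such small ratios needs a small SD, so this contrast follows from how the 15 were picked.

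For 5 members every one of the 10 female libraries lay above every one of the 10 male libraries. They are named here after their values were seen. Transcript_HQ_Female_transcript6573/f10p0/1770 had 351.6, 376.6, 815.9, 672.4 and 456.9 normalised counts in female hepatopancreas 1 to 5 and 166.6, 168.9, 180.4, 140.4 and 232.2 in male hepatopancreas 1 to 5. It had 903.3, 1069, 771.1, 910.3 and 1428 in ovaries and 141.7, 67.2, 121, 108.2 and 290.4 in testes. Testis 5 was the highest male library, still below female hepatopancreas 1. Its ovary was also higher than its female hepatopancreas (log2 change 1.07 ± 0.29 SE, edgeR adjusted p = 0.00787). Transcript_HQ_Female_transcript24158/f10p0/495 lay at 421.7 or more in every female library and at most 340 in every male one, and its tissue difference in females was not called (log2 change 0.19 ± 0.30 SE, edgeR adjusted p = 0.591). Transcript_HQ_Female_transcript13912/f32p0/1250 was divided only narrowly, with a lowest female value of 149.4 and a highest male value of 147.5. The same was true of transcript_HQ_Female_transcript8799/f4p0/1581, with 80.8 and 76.6, although its ovaries held 332.4 to 700.4 (log2 change against female hepatopancreas 2.59 ± 0.24 SE, edgeR adjusted p = 1.05e-05). Transcript_HQ_Female_transcript12642/f6p0/1367 had 173.4 as its lowest female and 149 as its highest male value, and male 1 had no count in either tissue.

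**Figure D3:**
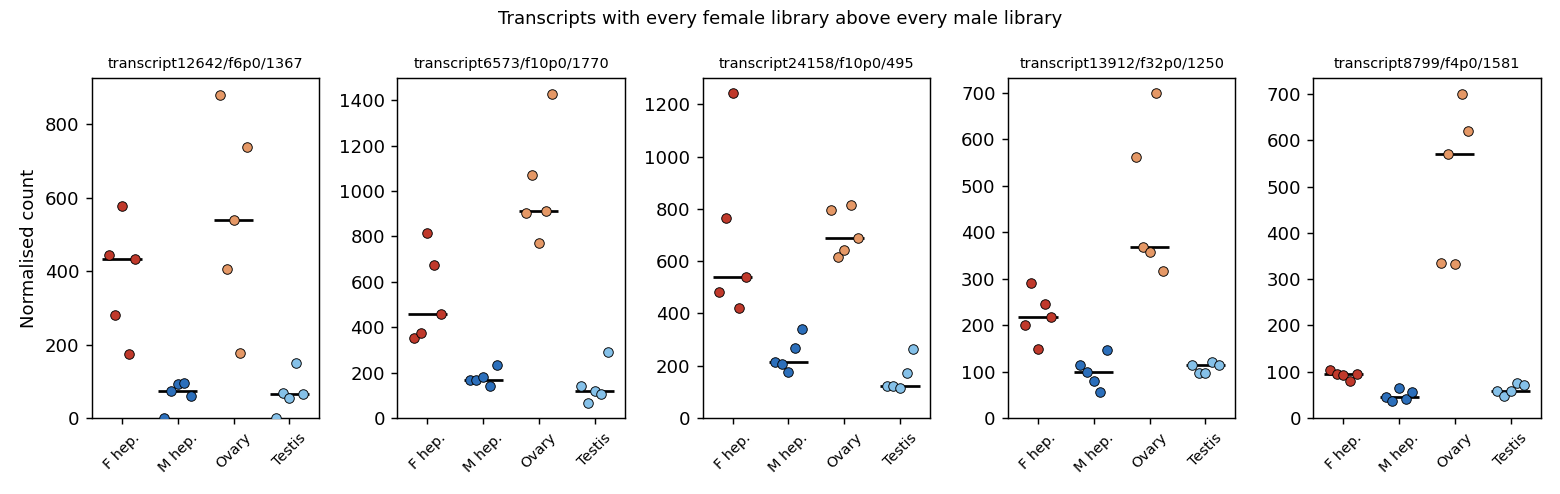
Normalised counts of the 5 members with every female library above every male library (1 panel each, linear axis from 0), with points for replicates 1 to 5 from left to right and the group median as a line. In all panels both female groups lie above both male groups, by the smallest margins in the last pair of panels.

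Several members of large ratio varied widely within a sex, and some of these varied in parallel in both tissues of 1 replicate number. Others of large ratio varied little. Transcript_HQ_Female_transcript5345/f2p0/1896 had the largest smaller ratio and, with the next member, the lowest male medians relative to its female medians. It had 118.4, 705.9, 20.6, 103.1 and 0 normalised counts in female hepatopancreas 1 to 5, and 27.5 in male hepatopancreas 1 with 0 in males 2 to 5. In ovaries it had 536.9, 0.55, 0, 383.5 and 354.3, and in testes it was at 0 but for 98.3 in testis 5. The sexes overlapped in both tissues. This member did not vary in parallel, since female 2 was the highest hepatopancreas but nearly empty in ovary.

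Transcript_HQ_Female_transcript569/f4p0/3248 showed the parallel pattern without exception. It had 196.1, 86.1, 30.4, 182.7 and 0 normalised counts in female hepatopancreas 1 to 5 and 161.2, 114.2, 68.7, 159.6 and 0 in ovaries 1 to 5. In males it was at 0 in numbers 1 to 3 of both tissues, at 187.9 and 183.5 in hepatopancreas 4 and 5, and at 223.9 and 283 in testes 4 and 5. The male libraries numbered 4 and 5 thus held as much as most female ones, and the female libraries numbered 5 held none in either tissue. Counts were present in both tissues in numbers 1 to 4 of females and in numbers 4 and 5 of males. Transcript_HQ_Female_transcript12413/f5p0/1389, named after its values were seen, divided the female libraries instead. It had 251.8, 52.8 and 89 in female hepatopancreas 2 to 4 and 874.6, 386.9 and 650.1 in ovaries 2 to 4, and at most 5.58 in females 1 and 5 and in every male library.

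A replicate number was counted as off where both tissues had under 10 normalised counts and as on where both had at least 50, bounds chosen after the values were seen. In 18 members (12.1%) at least 1 number was on and at least 1 was off within a sex, against 58 (1.57%) of the female-abundant transcripts. This held in females for 8, in males for 14 and in both sexes for 4. Of the 180 numbers of these 18 members, 98 were on in both tissues, 41 were off in both, 11 were on in 1 tissue and off in the other, and 30 had a value between the bounds. Of the 18, 17 were on in at least 1 male number. The medians that chose the members were taken over these same libraries and limit how many female numbers can be off, so the counts are a description and no difference between the sexes is read from them. The 31 members of smaller ratio at least 4 included 10 of the 18, and the other 118 included 8. How reads shared by near-identical transcripts were divided is not given in the sources used here, and the part of this division in the pattern was not tested.

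**Figure D4:**
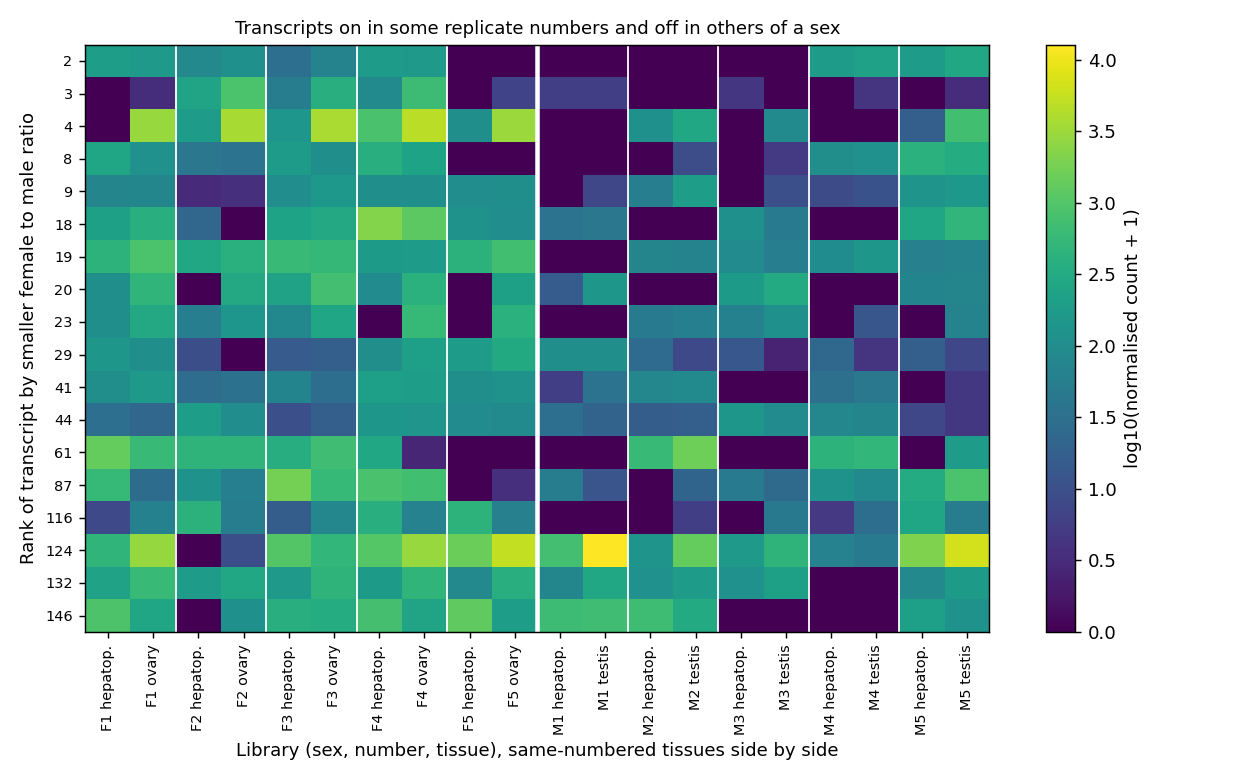
Log10 of the normalised count plus 1 (colour) for the 18 members that were on in some replicate numbers and off in others of a sex, in rows by rank of the smaller ratio, with the hepatopancreas and gonad libraries of 1 number side by side. Dark pairs of cells mark numbers that lacked a transcript in both tissues, as female 5 and males 1 to 3 in the row of rank 2.

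Parallel variation was also measured over all 149 members, these 18 included. Deviations from the group mean on the scale of log2(normalised count + 1) were correlated, across the 149 members, between the hepatopancreas and gonad libraries of 1 number at r = 0.35 to 0.65 in females and 0.45 to 0.68 in males. Against the gonads of the other numbers of the sex, r was at most 0.12. Each hepatopancreas thus matched its own number best in 10 of 10 cases. These are correlations across members, which share libraries and are not independent replicates. For single members over the 10 numbers, the median r was 0.36, against 0.16 over the female-abundant transcripts, and 31 members (20.8%) reached 0.7, against 10.6%. Most of the 18 members above were among the 31, and no correlation was computed without the 18. Whether parallel variation extended beyond them is thus not read from these values. The median SD between replicates on this log2 scale was 0.65 for members of smaller ratio 2 to 2.5 and 2.01 for those of 4 and above. Ratio and SD come from the same libraries, so this is a description and no relation is read from it.

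The difference between tissues was not used by the rule and was tested within each sex, without pairing libraries by number. In females, 60 of 149 members (40.3%) were higher in ovary and 15 (10.1%) were higher in hepatopancreas by edgeR's quasi-likelihood test with adjusted p under 0.05, and 74 were not called. Of all 7107 transcripts tested, 33.6% were higher in ovary and 33% in hepatopancreas. Of the female-abundant transcripts, which like the members must be abundant in both tissues, 36.7% and 25.2% were. The ovary share of the members was thus near the background, and their hepatopancreas share was below it. Both female medians entered the rule, and the members varied more between replicates, as given above. The part of either in these shares was not tested, so nothing is read from the difference. The 60 differed by log2 changes of 0.88 to 6.32 and the 15 by 0.66 to 8.02 in size, and the groups did not overlap for 49 members toward ovary and 8 toward hepatopancreas, against 27.1% of all transcripts in each direction. On library totals without TMM scaling the split was 107 to 4, where 56.2% and 15.8% of all transcripts were called, and the median of all transcripts stood at 1.63 in place of -0.03 (log2).

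The largest ovary excess was that of transcript_HQ_Female_transcript9562/f2p0/1566. It had 6446, 6994, 3587, 8277 and 6776 normalised counts in ovaries 1 to 5 and 38.9, 217.4, 14.3, 82 and 101.9 in female hepatopancreas 1 to 5, a log2 change of 6.32 ± 0.72 (SE; edgeR adjusted p = 3.43e-05). In males it had 526.7, 514.9, 456.5, 560.9 and 523.5 in testes and 113.2, 32.3, 30.6, 19 and 151.4 in hepatopancreas. The gonads stood above the hepatopancreas in both sexes, and every male hepatopancreas lay within the range of the female ones. Transcript_HQ_Female_transcript17844/f7p0/1032 followed, with 1542, 4508, 1089, 3353 and 2559 in ovaries and 51.2, 71, 38.5, 72.6 and 65.3 in female hepatopancreas (log2 change 5.60 ± 0.44 SE, edgeR adjusted p = 4.08e-06). Its testes had 37.1, 18, 41.9, 33.3 and 120, close to the 20.9 to 46.2 of male hepatopancreas except in testis 5. Its testis difference was not called (log2 change 0.82 ± 0.54 SE, edgeR adjusted p = 0.234).

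Toward hepatopancreas, transcript_HQ_Female_transcript3420/f7p0/2130 differed most in both sexes. It had 22128, 37704, 2239, 18261 and 28874 normalised counts in female hepatopancreas 1 to 5 and 36.4, 73, 65.3, 99.4 and 99.5 in ovaries 1 to 5, a log2 change of -8.02 ± 0.81 (SE; edgeR adjusted p = 1.67e-05). Male hepatopancreas 1 to 4 had 2187, 1588, 640 and 810.3, and male 5 had 43652, more than any female. The 5 testes held 2 counts in all, so male hepatopancreas was 36900-fold higher (95% interval 10200 to 305000), or 4010-fold (1110 to 33200) without male 5. These intervals cover counting error only. In this transcript a trace in ovary and near absence in testis met a large but variable hepatopancreas level. Transcript_HQ_Female_transcript2995/f2p0/2203 came next in females, with 1025, 1246, 280, 801.2 and 5037 in hepatopancreas and 87.6, 36.2, 51.4, 46.2 and 59.9 in ovaries (log2 change -4.74 ± 0.76 SE, edgeR adjusted p = 0.000327). Female 3 was the lowest hepatopancreas for both transcripts.

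In males, 142 of the 149 members had enough counts to be tested, and 26 (18.3%) were higher in testis and 20 (14.1%) in hepatopancreas. Of all 7094 transcripts tested, 25.1% and 23% were, and of the female-abundant ones 23.4% and 17.8%. The shares of the members were somewhat lower in both directions. The rule selects for low male medians, and the members varied more between replicates. The part of either in these shares was not tested, so nothing is read from the difference. The testis count depended on single libraries: it was 12 without male hepatopancreas 2, 15 without male hepatopancreas 3, 17 without testis 4 and 16 without testis 5. The share of all transcripts called higher in testis was 19.2%, 21.6%, 18.9% and 21.2% in these fits. The groups did not overlap for 9 members toward testis, against 13.8% of all transcripts, and for 18 toward hepatopancreas, against 21.4%. On library totals without TMM scaling 52 were higher in testis and 13 in hepatopancreas, where 44.7% and 15.3% of all transcripts were, and the median of all transcripts stood at 1.1 in place of 0.21 (log2).

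Transcript_HQ_Female_transcript6335/f41p0/1746 had the largest testis excess, with 418.8, 312, 606.6, 637.4 and 552.6 normalised counts in testes 1 to 5 and 30.7, 17.1, 5.11, 17.1 and 55.2 in male hepatopancreas 1 to 5 (log2 change 4.48 ± 0.58 SE, edgeR adjusted p = 0.000139). Its ovaries held 1099 to 2008, all above the testes, and female hepatopancreas held 0 to 126.5. Transcript_HQ_Female_transcript6588/f24p0/1735 was similar, with 1688, 2029, 1079, 1203 and 323.1 in testes and 38.8, 81.6, 39.2, 79.7 and 87.2 in male hepatopancreas (log2 change 4.36 ± 0.48 SE, edgeR adjusted p = 5.23e-05). Its ovaries held 3241 to 5303. Toward hepatopancreas, transcript_HQ_Female_transcript4445/f4p0/1994 followed the transcript with 2 testis counts described above. It had 187.7, 379.5, 326.8 and 174.6 in male hepatopancreas 1 to 4 and 11522 in male 5, against 9 counts in the 5 testes together. Male hepatopancreas was 2120-fold higher (95% interval 1120 to 4640), or 179-fold (93.6 to 393) without male 5. Both hepatopancreas transcripts entered the test only through the 5 hepatopancreas libraries, so a difference was fixed by that filter. In females this transcript had 1788, 1007, 2210, 3137 and 1821 in hepatopancreas and 89.9 to 247.6 in ovaries.

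Tissue differences of the members mostly ran the same way where they were called in both sexes, as did those of all transcripts. Among the 142 members tested in both, 24 were higher in the gonad in both sexes (16.9%) and 11 higher in hepatopancreas in both (7.75%). Of 6520 transcripts tested in both, 691 (10.6%) and 1204 (18.5%) were, and 84 and 284 were called in opposite directions in the sexes. Another 35 members were higher in ovary with no call in males, where 18.8% of the 6520 were. A call toward hepatopancreas in females and toward testis in males was made for 0 members, against 284 of the 6520. A call toward ovary in females and toward hepatopancreas in males was made for 1 member, against 84 (1.29%) of the 6520. This member, transcript_HQ_Female_transcript11690/f9p0/1429, was named after its values were seen. It had 2644, 1504, 1814, 1339 and 1686 normalised counts in ovaries and 162.4 to 245.1 in female hepatopancreas 1, 3, 4 and 5 with 64.6 in number 2 (log2 change 3.45 ± 0.40 SE, edgeR adjusted p = 3.77e-05). In males it had 62.8, 21.6, 26.6, 38.3 and 38.3 in testes and 79.3, 93, 119.1, 140.4 and 46.2 in hepatopancreas (log2 change -1.21 ± 0.38 SE, edgeR adjusted p = 0.0239). Every ovary stood above all other libraries, while the male tissues overlapped, with male hepatopancreas 5 below testis 1. The difference between the sexes' tissue changes is built from the ratios that chose the members and was not tested.

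**Figure D5:**
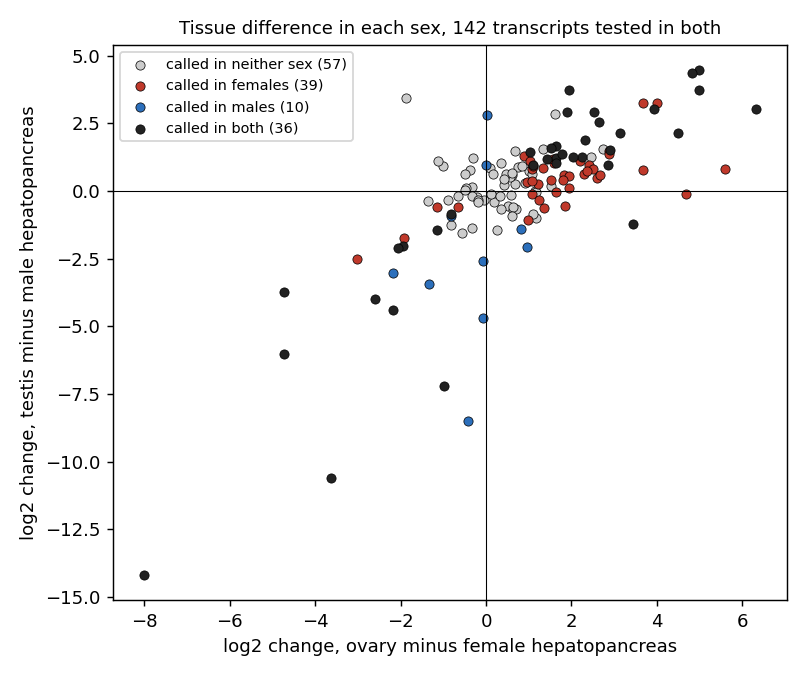
Log2 change between tissues in females (x, ovary minus hepatopancreas) and in males (y, testis minus hepatopancreas) for the 142 members tested in both, coloured by the sex in which the change was called. Of the 36 members called in both, 24 lie toward the gonads and 11 toward the hepatopancreas in both sexes, and 1 lies toward ovary and male hepatopancreas.

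Between the sexes themselves, edgeR called 23 of 148 tested members higher in female than in male hepatopancreas, where 2.19% of all transcripts were called higher in females. It called 103 of 147 tested members higher in ovary than in testis, where 27% of all transcripts were. Nothing is read from either count, since the rule used these differences. The 23 had adjusted p from 0.036 to 0.0491. Leaving out 1 library gave 58 without male hepatopancreas 5, 36 without female hepatopancreas 3 and 0 without any 1 of the other 8. In the first and second of these fits 6.81% and 5.32% of all transcripts were called higher in females. With all 10 libraries 85 members had an unadjusted p under 0.05.

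Weight gain, a label whose unit is not stated, was tested as a slope within sex. In hepatopancreas, 0 of 148 tested members and 0% of 6582 transcripts were called by edgeR, and 10 members had an unadjusted p under 0.05, where 6.15% of all transcripts did. DESeq2 called 2 members in hepatopancreas, both rising with weight gain, where it called 1.26% of all transcripts rising. In gonads, 0 of 147 members and 0% of 7045 transcripts were called, and 1 member had an unadjusted p under 0.05, where 2.48% of all transcripts did, and DESeq2 called 0. The median slope over the members was 0.07 log2 units per unit of weight gain in hepatopancreas and 0 in gonads, against 0.02 and 0 over all transcripts.

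Transcript length and features of the IDs were not used by the rule. They set the members as a whole little apart from other female-abundant transcripts. The median length was 1675 bases, with quartiles of 1161 and 2130, against a median of 1749 with quartiles of 1253 and 2337. Lengths ran from 276 to 5171 bases. The 31 members of smaller ratio at least 4 had a median of 1967 bases, and 7 of them (22.6%) were longer than 3000 bases, against 4 of the other 118 (3.39%) and 10.5% of the female-abundant transcripts. The word Female stood in 146 IDs (98%), against 97.4%, and all 149 were of the class HQ, against 99.3%. The number written after f in the ID had a median of 4 in both sets, and was 2 for 30.9% of members against 31.6%.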

How the data were processed

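Estimated counts per transcript were deposited by the authors for 20 libraries without normalisation, and 58.7% of the values above 0 were whole to within 1e-06. Transcript length is a separate column of the table. Per the submitters' processing notes, the tools included Bowtie 0.12.2 and DESeq 1.10.1, without a stated role. Which program counted the reads, and against which transcript set, is not given in the sources used here. The members and the lists were chosen with earlier results of these data known.

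Estimated counts were rounded. Size factors were median-of-ratios factors of DESeq2 1.42.0 over all 20 libraries. Comparisons were fitted across all transcripts that had 10 counts or more in 5 or more of the libraries compared, using edgeR 4.0.16 (quasi-likelihood test, TMM) in R 4.3.3, with 5 libraries per group and Benjamini-Hochberg adjustment over all transcripts tested, and were tested on simulated data. The SE of a log2 change was its size over the square root of F. Weight gain slopes had sex as a covariate. Named transcripts were those of the largest smaller ratio, the highest female medians, the lowest male relative to female medians, and, per tissue comparison, up to 2 per direction of largest change among called members without overlap. Others are marked as chosen after their values were seen.

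Replicate numbers were taken to pair tissues of a sex only in the on and off counts, the correlations between tissues and the replicate block. The tissue tests reported above were unpaired. Across the 3693 female-abundant transcripts, same-numbered libraries deviated together with r of 0.19 to 0.53 in females and 0.29 to 0.48 in males. Each library matched its own number best. This pairing comes from the data, since the labels do not state it and the weight gain labels of same-numbered libraries differed. Between the sexes r was -0.08 to 0.09. No 2 libraries of a group agreed within sampling noise. Alternatives were DESeq2, other scalings and filters, all 4 groups in 1 fit, a replicate block, a weight gain covariate, and fits with libraries left out. Leaving out the 2 transcripts of highest count, and the counts without overlap when libraries are left out, were added after seeing the data.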

Additional observations from a re-analysis of the deposited data

Results flagged for a closer look

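In 13 of 48 groups of 5 libraries examined, a library lay far from the other 4. About 1 in 20 groups would be flagged by chance if the values were normally distributed. Untransformed counts need not be, and 4 values of 0 beside any count are always flagged. No excess over chance is thus read from the 13. The groups were those of the summed counts and of the named transcripts, which share libraries, and no explanation was tested.

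Male hepatopancreas 5 was far above its group in 5 of them. Its summed normalised count of the members was 445485, against at most 105252 in the other males. It had 263521 of transcript_HQ_Male_transcript29924/f2p0/779, 43652 of transcript_HQ_Female_transcript3420/f7p0/2130, 11522 of transcript_HQ_Female_transcript4445/f4p0/1994 and 1443 of transcript_HQ_Female_transcript2995/f2p0/2203. The next male had 25371, 2187, 379.5 and 463 of these. Female hepatopancreas 5 was far above its group for the first and the last of the 4, with 456855 and 5037, and the next female had 79744 and 1246.

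Female hepatopancreas 3 had 47384 of transcript_HQ_Female_transcript17214/f2p0/1113, and the next female 14067. Female hepatopancreas 2 had 705.9 of transcript_HQ_Female_transcript5345/f2p0/1896, male hepatopancreas 1 had 27.5 and testis 5 had 98.3, and the next libraries of these groups had 118.4, 0 and 0. Testis 5 also had 120 of transcript_HQ_Female_transcript17844/f7p0/1032, against 41.9 in the next testis. Testis 1 had 1.6 of transcript_HQ_Female_transcript3420/f7p0/2130, a single count.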

How the results depend on the processing

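On library totals alone, 300 transcripts met the rule (the most it keeps), 129 of the 149 among them, and the gonad ratio of summed counts was 9.07. The same scaling gave 107 and 4 members toward ovary and female hepatopancreas, 52 and 13 toward testis and male hepatopancreas, and 0 in female against male hepatopancreas. That last count was also 0 with no filter on low counts, with the replicate block and with weight gain as covariate. It was 70 in DESeq2 and 43 without the libraries that stood apart. In these fits 9.57% and 3.84% of all transcripts were called higher in females, against 2.19% in the fit reported above. Weight gain labels of the hepatopancreas libraries did not overlap between the sexes (4.33 to 7.21 in females, 1.61 to 3.69 in males). Sex and weight gain thus cannot be cleanly told apart in the fit with the covariate. In edgeR, 84, 85, 20 and 95 members had an unadjusted p under 0.05 with no filter, with the block, with the covariate and on library totals, and 73 to 84 did where leaving out 1 library gave 0. Of all transcripts, 2058 of 9738, 1361 of 6582, 631 of 6582 and 1841 of 6582 did in the first of these fits. Where leaving out 1 library gave 0, 1352 to 1684 of all transcripts did. DESeq2 called 2 members rising with weight gain in hepatopancreas (1.26% of all transcripts). With group means in place of medians 139 transcripts met the rule, 83 of the 149 among them, with TMM sizes 161 (138 shared) and without the 3 libraries that stood apart 184 (121 shared). The fits with a replicate block gave 67 and 13 members in females and 27 and 19 in males, and 97 between the gonads. Of all transcripts, 33.7%, 31.3%, 22.5%, 23.2% and 25.1% were called in these directions. Between the sexes, in hepatopancreas as in gonads, libraries of 1 number cannot come from 1 animal, so the block paired nothing there.

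Leaving out each library in turn gave 119 to 176 transcripts that met the rule, ratios of summed counts of 2.47 to 3.29 in hepatopancreas and 2.49 to 3.25 in gonads, 54 to 64 members toward ovary, 12 to 20 toward female hepatopancreas, 12 to 27 toward testis, 16 to 24 toward male hepatopancreas, 0 to 58 toward females in hepatopancreas and 91 to 116 toward ovary against testis. Of all transcripts, 29.2% to 34.8%, 30% to 34.1%, 18.9% to 23.1% and 17.9% to 26.6% were called in the tissue directions, in the same order. Between the sexes 0% to 6.81% were called in hepatopancreas and 23.8% to 30.7% in gonads. The 2 transcripts higher in male hepatopancreas than in testis that were named had no adjusted p in DESeq2, and could not be fitted without any 1 male hepatopancreas library, since the filter then removed them. The other named tissue changes kept their direction and their call in every alternative run. The cause of these shifts was not tested. Depth limits the members with medians near 50, for which a library can hold few counts.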
